A study of Mus musculus with 21 samples.

Results

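The 10 genes *Gsdmd*, *Gsdme*, *Mlkl*, *Ripk1*, *Ripk3*, *Casp1*, *Casp4*, *Casp8*, *Nlrp3* and *Pycard* carry the lytic forms of cell death and the inflammasome. They were taken by gene symbol from the 56691 genes of a mouse RNA-seq table, and all 10 were found once each. The table covers 21 libraries. NS mice without a tumor received normal saline (5 libraries), and DOX mice without a tumor received doxorubicin, an anthracycline that damages the heart, at 5 mg/kg intraperitoneally once weekly for 3 weeks (5 libraries). Tumor+NS mice carried subcutaneous tumors of 4T1, a murine breast cancer cell line, and received normal saline (6 libraries), and Tumor+DOX mice carried the same tumors and received the same doxorubicin (5 libraries). A single tumor line was used and 1 time point was sampled, and the sources used here give no strain, sex or age. As source the labels give the 4T1 line throughout, but the study describes hearts. All 8 cardiomyocyte markers were detected, at a summed 11737 to 18553 FPKM per library, while 6 epithelial markers, the kind a carcinoma line would carry, summed to 0.11 to 2.46 FPKM. FPKM is the count scaled by gene length and by the total of the library.

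Lytic death ends with the rupture of the plasma membrane and the release of cell contents. In pyroptosis an inflammasome forms when a sensor such as NLRP3 gathers the adaptor ASC, the product of *Pycard*, and activates caspase-1. Caspase-1 matures interleukin-1β and interleukin-18 and cuts gasdermin D, whose freed end forms pores. Caspase-11, the product of mouse *Casp4*, senses bacterial lipopolysaccharide in the cytosol and also cuts gasdermin D, and gasdermin E is opened by caspase-3. In necroptosis RIPK1 and RIPK3 form a complex that activates the pore-forming pseudokinase MLKL, and caspase-8 restrains that complex. All of these proteins are activated after translation, so a transcript level does not report whether a cell dies in this way.

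Coding and promoter sequences show how the caspases are related and what lies in front of genes that were higher in tumor-bearing mice. The inflammatory caspase genes lie next to each other on the plus strand of chromosome 9, in the table's coordinates (GRCm39, the build in the submitters' processing notes), with *Casp1* at chr9:5298508-5307290 and *Casp4* at chr9:5308828-5336783. The caspases share the region around the catalytic cysteine, given here as 57 coding bases from GENCODE M21 transcripts, with the 5 codons around the cysteine codon in capitals.
Casp1: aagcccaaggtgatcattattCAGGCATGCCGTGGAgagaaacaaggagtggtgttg
Casp4: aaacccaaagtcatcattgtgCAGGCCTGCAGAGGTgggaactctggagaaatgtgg
Casp8: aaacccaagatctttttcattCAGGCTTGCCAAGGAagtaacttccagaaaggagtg
*Casp1* and *Casp4* were identical at 39 of the 57 bases, *Casp4* and *Casp8* at 32, and *Casp1* and *Casp8* at 31. *Casp1* and *Casp4* transcripts shared no run of 50 bases with each other, so full-length matches separate their reads.

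RefSeq windows from 250 bases before to 50 bases after the gene start (GRCm38.p6) were available for 9 of the 10 members. The windows of *Casp4* (chr9:5308599-5308898, plus strand), *Nlrp3* (chr11:59541319-59541618, plus strand) and *Casp1* (chr9:5298267-5298566, plus strand) are printed because these genes were higher in tumor-bearing mice with and without doxorubicin, with matches to the NF-κB site in capitals.
Casp4: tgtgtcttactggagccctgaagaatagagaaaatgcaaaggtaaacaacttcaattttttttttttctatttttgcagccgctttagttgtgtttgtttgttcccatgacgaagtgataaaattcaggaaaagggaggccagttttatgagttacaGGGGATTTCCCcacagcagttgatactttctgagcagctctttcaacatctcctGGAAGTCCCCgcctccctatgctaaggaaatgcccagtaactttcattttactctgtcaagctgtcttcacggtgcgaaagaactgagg
Nlrp3: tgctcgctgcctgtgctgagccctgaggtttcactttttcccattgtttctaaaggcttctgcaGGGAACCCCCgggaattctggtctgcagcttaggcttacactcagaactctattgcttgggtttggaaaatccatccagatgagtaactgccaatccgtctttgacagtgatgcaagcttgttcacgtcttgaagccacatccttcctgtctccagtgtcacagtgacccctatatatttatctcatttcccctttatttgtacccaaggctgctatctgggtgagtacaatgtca
Casp1: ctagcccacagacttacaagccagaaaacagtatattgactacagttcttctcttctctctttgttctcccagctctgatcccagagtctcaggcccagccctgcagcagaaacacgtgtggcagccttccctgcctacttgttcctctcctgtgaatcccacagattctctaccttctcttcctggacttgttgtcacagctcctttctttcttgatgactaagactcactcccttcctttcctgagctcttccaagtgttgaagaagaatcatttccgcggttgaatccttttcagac
Both strands were searched for the NF-κB site, the interferon-stimulated response element (2 runs of GAAA with 2 bases between them) and the gamma-activated site TTCNNNGAA. These were found in 8.46%, 3.44% and 8.3% of 32851 promoter windows of the same length. *Casp4* held NF-κB matches that begin 93, 92 and 39 bases before the start, the first 2 overlapping each other, and *Nlrp3* held 1 that begins 186 bases before it. *Nlrp3* has a second window, at chr11:59542436-59542735, without a match, and the second window of *Casp4*, which overlaps the first, holds the same 3 matches. Of the windows of *Ripk1*, 1 held the interferon element and 2 gamma-activated sites, and no match was found in the windows of *Casp1*, *Casp8*, *Gsdme*, *Mlkl*, *Pycard* and *Ripk3*. A match of letters is a description and not evidence of binding.

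Depth was 13521200 to 18601445 counts per library, and single members had 1 to 1032 counts. Of the 10 members, 8 reached a mean of 0.5 FPKM and were tested with 13990 genes in all, whereas *Nlrp3* and *Pycard* did not. Several libraries stood apart. DOX replicate 4 summed to 67.1 FPKM over 10 T cell and thymocyte markers, against 1.23 to 3.70 in the other DOX libraries, and Tumor+NS replicate 5 summed to 11.5 against 0.96 to 2.00. NS replicate 3 differed from the other NS libraries by a chi-square per degree of freedom of 74 to 84.8, where the other NS pairs had 5.33 to 8.77, and it held the highest erythroid marker sum of NS (1094 FPKM against 251.6 to 502.8). Results are given without these libraries where they decide a value. In bulk RNA, fewer cells of a type and less RNA per cell cannot be told apart. The labels do not state that the libraries came from separate animals, so p-values measure the spread between libraries.

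Levels between genes were compared in FPKM, which is scaled by length. *Gsdmd* and *Casp8* were the most abundant members in every group, at 4.35 ± 0.543 and 4.33 ± 0.735 FPKM in NS (mean ± SD, n = 5), and their libraries overlapped with each other. *Ripk1* followed in NS at 1.77 ± 0.167 FPKM, apart from *Casp8*. *Mlkl*, *Casp4*, *Ripk3*, *Casp1* and *Gsdme* lay between 0.808 and 1.40 FPKM, each overlapping with its neighbor in this order. *Pycard* at 0.372 ± 0.127 FPKM and *Nlrp3* at 0.150 ± 0.0675 FPKM were lowest. In Tumor+NS *Casp4* moved to rank 3 with 4.82 ± 2.64 FPKM (n = 6), a level whose libraries overlapped with those of *Casp8* and *Ripk1*, and it had the same rank in Tumor+DOX.

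**Figure D1:**
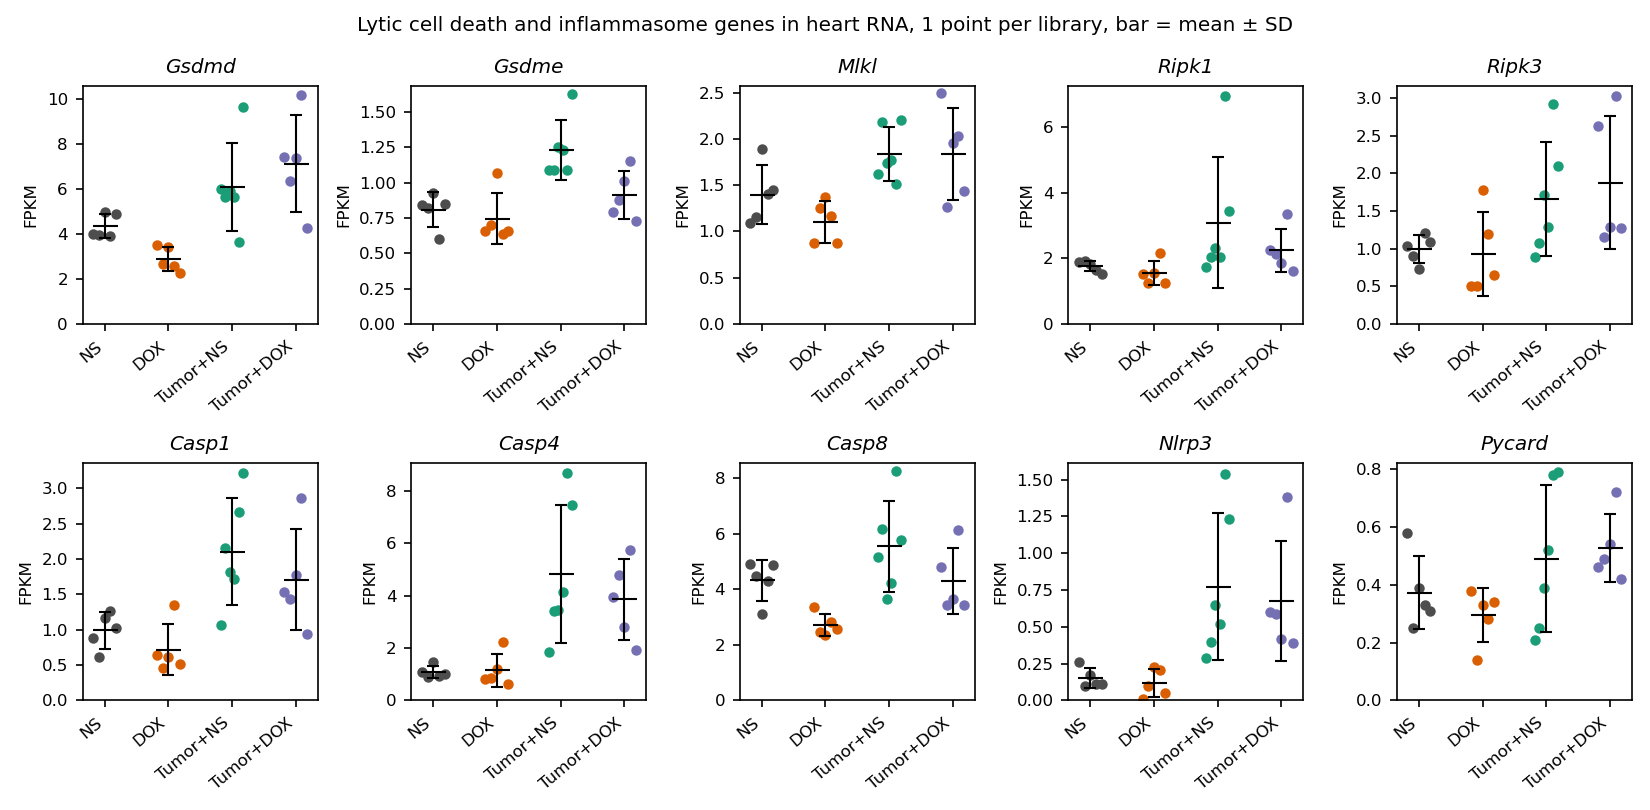
FPKM of the 10 members (vertical axes, linear, each from 0) in NS, DOX, Tumor+NS and Tumor+DOX, with 1 point per library and the mean ± SD in black. *Casp4* reached 1.84 to 8.66 FPKM in the 6 Tumor+NS libraries against 0.90 to 1.48 in the 5 NS libraries, and 1 Tumor+NS library holds *Ripk1* at 6.96 FPKM.

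The first comparison asks what doxorubicin did to these genes without a tumor. By edgeR's quasi-likelihood test 0 of the 8 members tested passed an adjusted p of 0.05, where 36.2% of all genes tested did, and 2 of 8 were under an unadjusted p of 0.05, where 45.9% of all genes tested were. DESeq2 also called 0. The median log2 fold change was −0.13 over the members and 0.00 over all genes tested. The 2 members nearest to the threshold were the gasdermin of pyroptosis and the caspase that restrains necroptosis.

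*Gsdmd* (ENSMUSG00000022575, chr15:75734176-75739257) stood at 4.00, 3.97, 4.98, 3.90 and 4.91 FPKM in the NS libraries and at 3.5, 2.65, 3.41, 2.59 and 2.28 in the DOX libraries. All DOX libraries lay below all NS libraries, also in CPM (counts scaled to the library size with TMM factors). This was so for 25.3% of all genes tested in either direction and for 13.3% in the lower direction. The log2 fold change was −0.45 (SE 0.188, edgeR adjusted p = 0.0627). *Casp8* (ENSMUSG00000026029, chr1:58834533-58886662) stood at 4.90, 4.47, 3.10, 4.29 and 4.88 FPKM in NS and at 3.36, 2.48, 2.36, 2.81 and 2.57 in DOX, where only NS replicate 3 reached into the range of DOX. Its log2 fold change was −0.54 (SE 0.219, edgeR adjusted p = 0.0595), and −0.65 without NS replicate 3 (adjusted p = 0.0255). Whether either was called turned on the fit. When only NS and DOX libraries were fitted, the adjusted p was 0.0243 for *Gsdmd* and 0.0273 for *Casp8*, and scaling by library totals, which moves the median of all genes to −0.14 and the higher share of the genes called from 49.8% to 28.8%, gave 0.0417 and 0.0148. Without DOX replicate 4 and Tumor+NS replicate 5 the edgeR adjusted p was 0.0714 for *Gsdmd* and 0.0288 for *Casp8*.

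Among the other members *Casp1* had a log2 fold change of −0.32 (95% interval −0.99 to 0.36), *Casp4* of 0.24 (−0.58 to 1.05) and *Mlkl* of −0.20 (−0.61 to 0.21). DOX replicate 4, the library with thymocyte transcripts, held the highest DOX level of *Casp4* (2.23 FPKM, against 0.63 to 1.19) and of *Casp1* (1.35 FPKM, against 0.46 to 0.64). Without it the values were −0.17 for *Casp4* (edgeR adjusted p = 0.767) and −0.68 for *Casp1* (0.0953). *Gsdme*, *Ripk1* and *Ripk3* lay within 0.06 of 0 on the log2 scale, with intervals as wide as −0.78 to 0.80 for *Ripk3*. Without DOX replicate 4 and Tumor+NS replicate 5 *Ripk1* gave −0.22 (edgeR adjusted p = 0.303) and *Ripk3* −0.12 (0.828). Summed over 10 macrophage markers, FPKM was 132 to 160 in NS and 56.7 to 94.8 in DOX, and 6 of these markers fell. Erythroid markers summed to 251.6 to 1094 FPKM in NS and 4.77 to 146 in DOX (5 of 5 tested fell). B cell markers summed to 1.74 to 4.37 and 1.06 to 1.46. Of 8 fibroblast markers 5 fell and 1 rose, of 8 cardiomyocyte markers 3 rose, and of 10 neutrophil markers 5 rose. The part of these cell types in the values of *Gsdmd* and *Casp8* was not tested.

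In tumor-bearing mice the median log2 fold change with doxorubicin was −0.35 over the members and −0.02 over all genes tested. Of the 8 members 2 had a positive value. In edgeR 0 of 8 members passed the threshold, where 4.72% of all genes tested passed. An unadjusted p under 0.05 was held by 1 of 8 members, against 20.4% of all genes tested. That gene was *Gsdme* (ENSMUSG00000029821, chr6:50165868-50240842), whose product opens pores after cleavage by caspase-3. Its levels were 13.8, 13.5, 15.1, 14.7, 14.9 and 18.2 CPM in Tumor+NS and 9.72, 11, 12.5, 12.9 and 9.41 in Tumor+DOX. Each Tumor+DOX library lay below each Tumor+NS library, as 4.95% of all genes tested did in either direction and 2.22% in the lower direction. In FPKM the groups overlapped, from 1.09 in Tumor+NS up to 1.15 in Tumor+DOX. The log2 fold change was −0.44 (SE 0.130, edgeR adjusted p = 0.0551), and DESeq2 called it (adjusted p = 0.0186). Without DOX replicate 4 and Tumor+NS replicate 5 the edgeR adjusted p was 0.0497. *Gsdme* overlaps *Pals2* on the other strand over 10052 bases, and the counting is not stated to use strand, so reads of both genes may be mixed.

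For the remaining members doxorubicin in tumor-bearing mice gave log2 fold changes from −0.52 for *Ripk1* (95% interval −1.13 to 0.09) to 0.22 for *Gsdmd* (−0.14 to 0.58). *Casp8* stood at −0.41 (−0.83 to 0.02), *Casp4* at −0.36 (−1.08 to 0.35), *Casp1* at −0.33 (−0.94 to 0.28) and *Mlkl* at −0.01 (−0.39 to 0.37). Without DOX replicate 4 and Tumor+NS replicate 5 *Ripk1* gave −0.03, *Casp4* −0.05, *Casp8* −0.21, *Casp1* −0.21 and *Ripk3* 0.42, against 0.13 for *Ripk3* with them, and none of these was called in edgeR. Of 10 neutrophil markers 0 were called in this comparison in edgeR. Erythroid markers summed to 2.96 to 40 FPKM in Tumor+DOX, against 527 to 975 after saline (5 of 5 tested fell), and B cell markers to 1.10 to 3.75, against 4.24 to 8.80. Of the fibroblast markers 4 of 8 fell, and of the macrophage markers 2 of 10. Cardiomyocyte markers summed to 15106 to 18000 FPKM, against 11737 to 13744, and 3 of 8 rose. The part of these cell types in the members' values was not tested.

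Whether doxorubicin acted differently in the 2 states was tested as the interaction, the value in tumor-bearing mice less that in tumor-free mice on the log2 scale. It called 0 of 8 members in edgeR, where 8.94% of all genes tested were called, with 2 of 8 at an unadjusted p under 0.05, against 28.9% of all genes tested. *Gsdmd* had the largest value, 0.68 (SE 0.256, adjusted p = 0.0887), and *Gsdme* had −0.45 (SE 0.188, adjusted p = 0.122). The *Gsdmd* call was made without Tumor+NS replicate 6 or without Tumor+DOX replicate 5, with adjusted p values down to 0.0401, and with the replicate number as a block (0.83, adjusted p = 0.0475). Whether *Gsdmd* responded differently in the 2 states thus depended on the fit.

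**Figure D2:**
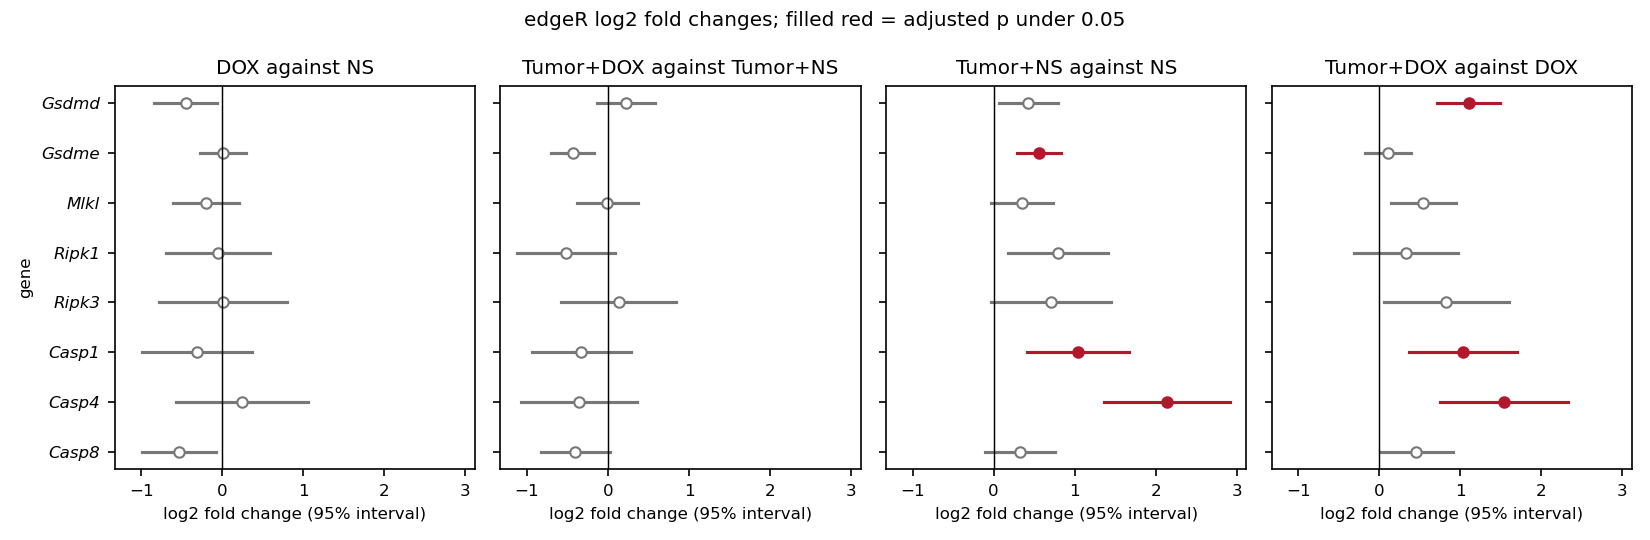
Log2 fold changes of the 8 members tested (horizontal axis) with 95% intervals in 4 comparisons, from edgeR, filled red where the adjusted p was under 0.05. No interval is red for DOX in either state, and *Casp4*, *Casp1* and either *Gsdme* or *Gsdmd* are red in the comparisons of tumor-bearing with tumor-free mice.

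The remaining comparisons set tumor-bearing against tumor-free mice, with saline and with doxorubicin. In Tumor+NS against NS 3 of 8 members rose and 0 fell in edgeR, where 6.28% of all genes tested were called and 5% were called higher. All 8 members had positive log2 fold changes, with a median of 0.63 against −0.01 over all genes tested. In Tumor+DOX against DOX 3 of 8 members rose and 0 fell, where 17.5% of all genes tested were called and 9.52% were called higher, and the median was 0.69 against −0.01. In this comparison 54.5% of the genes called were higher, and 88.6% when scaled by library totals. *Casp4* and *Casp1* rose in both, *Gsdme* in the first and *Gsdmd* in the second. Both comparisons use libraries that enter the comparisons above.

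*Casp4* (ENSMUSG00000033538), the sensor of cytosolic lipopolysaccharide, rose in both comparisons. It stood at 1.07, 0.90, 1.48, 0.93 and 0.99 FPKM in NS and at 1.84, 3.40, 3.44, 4.14, 8.66 and 7.45 in Tumor+NS, and the groups did not overlap, as was so for 6.18% of all genes tested in either direction and 4.21% in the higher direction. The log2 fold change was 2.14 (SE 0.375, edgeR adjusted p = 0.000609), a 4.41-fold difference. With doxorubicin the levels were 0.82, 0.85, 1.19, 2.23 and 0.63 FPKM without a tumor and 3.96, 4.80, 2.81, 5.75 and 1.92 with a tumor. Only DOX replicate 4 overlapped with a tumor-bearing library, and the log2 fold change was 1.54 (SE 0.381, edgeR adjusted p = 0.00785). Without DOX replicate 4 and Tumor+NS replicate 5 the values were 1.83 (edgeR adjusted p = 0.000148) and 1.95 (0.000153).

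*Casp1* (ENSMUSG00000025888), the caspase of the inflammasome, stood at 0.88, 0.61, 1.17, 1.26 and 1.03 FPKM in NS and at 1.07, 2.16, 1.81, 1.71, 2.66 and 3.22 in Tumor+NS. All Tumor+NS libraries lay above the NS mean, and Tumor+NS replicate 1 lay within the range of NS. The log2 fold change was 1.05 (SE 0.304, edgeR adjusted p = 0.041), and in Tumor+DOX against DOX it was 1.03 (SE 0.322, adjusted p = 0.0304). Of 21 fits with 1 library omitted, 10 did not make the first call, among them those without Tumor+NS replicate 5 (adjusted p = 0.0909) and NS replicate 3 (0.0733), and 6 did not make the second, among them that without Tumor+DOX replicate 4 (0.102). Over these fits the values ranged from 0.92 to 1.18 and from 0.82 to 1.40.

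*Nlrp3* (ENSMUSG00000032691, chr11:59432394-59457782), the inflammasome sensor, was below the expression minimum and was tested alone, on log2(FPKM + 0.1), by exact permutation (two-sided), a scale that understates changes of low genes. It stood at 0.26, 0.10, 0.17, 0.11 and 0.11 FPKM in NS and at 0.29, 0.40, 0.65, 0.52, 1.54 and 1.23 in Tumor+NS. The difference was 1.65 (exact p = 0.00433, 0.0212 adjusted over 8 tests). With doxorubicin it was 0.01, 0.10, 0.23, 0.21 and 0.05 FPKM without a tumor and 0.60, 0.59, 0.42, 1.38 and 0.39 with a tumor, a difference of 1.82 (exact p = 0.00794, the smallest that 5 against 5 libraries allow, adjusted 0.0212). In both pairs of groups the libraries did not overlap. Of all genes tested, which leave out *Nlrp3*, 6.18% did not overlap with saline and 14.5% with doxorubicin (4.21% and 7.66% in the higher direction). In edgeR without an expression minimum the log2 fold changes were 2.31 (SE 0.469, adjusted p = 0.00135) and 2.26 (SE 0.497, adjusted p = 0.00267). NS and DOX libraries held 1 to 17 *Nlrp3* counts and tumor-bearing libraries 18 to 111.

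*Pycard* (ENSMUSG00000030793, chr7:127588880-127593039) encodes the adaptor ASC, and with 8 to 53 counts it was also below the minimum. It was 0.38, 0.14, 0.33, 0.28 and 0.34 FPKM in DOX and 0.46, 0.49, 0.54, 0.72 and 0.42 in Tumor+DOX, a difference of 0.69 (exact permutation p = 0.00794, adjusted 0.0212). These libraries did not overlap in FPKM but did in CPM, from 1.61 in Tumor+DOX up to 1.62 in DOX. In edgeR without an expression minimum this was not called (log2 fold change 0.62, adjusted p = 0.341). Between NS and Tumor+NS the difference was 0.24 (exact permutation p = 0.494). Of the 50-base runs in its transcripts 11.7% also occur in *Mvp* or *Gm45205*, so part of its reads may be shared. Doxorubicin gave exact permutation p values from 0.373 to 0.857 for *Nlrp3* and *Pycard* in the 2 states.

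Among the executioners *Gsdme* rose with the tumor in saline-treated mice, from 10.2 ± 1.3 CPM (n = 5) to 15 ± 1.7 (n = 6). Its log2 fold change was 0.56 (SE 0.130, edgeR adjusted p = 0.00997). The libraries of the 2 groups did not overlap, as was so for 6.18% of all genes tested in either direction and 4.21% in the higher direction. With limma on log2 FPKM it was not called (adjusted p = 0.0663 and 0.0558 with pseudocounts of 0.1 and 1). In doxorubicin-treated mice its value was 0.11 (95% interval −0.17 to 0.39). *Gsdmd* gave 0.43 in saline-treated mice (SE 0.177, edgeR adjusted p = 0.166) and rose in doxorubicin-treated mice by 1.11 (SE 0.187, adjusted p = 0.000341). The 5 Tumor+DOX libraries at 7.45, 6.38, 7.41, 10.2 and 4.26 FPKM all lay above the 5 DOX libraries, a separation that 14.5% of all genes tested showed in either direction and 7.66% in the higher direction. In Tumor+NS *Gsdmd* reached 6.01, 5.65, 5.94, 5.65, 3.67 and 9.66 FPKM, with replicate 5 below all NS libraries and replicate 6 above all others of its group.

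*Mlkl* (ENSMUSG00000012519, chr8:112038429-112064809), the pore former of necroptosis, was not called in edgeR with TMM scaling and all libraries. Its log2 fold changes were 0.35 (edgeR adjusted p = 0.283) and 0.54 (0.0574). The second was called with library totals (edgeR adjusted p = 0.0211) and with limma (0.0172 and 0.0205 with pseudocounts of 0.1 and 1). It was also called in edgeR without Tumor+NS replicate 5 or without Tumor+DOX replicate 2. The kinase gene *Ripk3* (ENSMUSG00000022221, chr14:56022452-56026322) gave 0.71 (edgeR adjusted p = 0.264) and 0.83 (0.128) in the same comparisons. *Ripk1* (ENSMUSG00000021408, chr13:34186346-34221130), which encodes the upstream kinase, stood at 1.74, 2.04, 2.32, 2.04, 6.96 and 3.44 FPKM in Tumor+NS, against 1.53 to 1.91 in NS. Its log2 fold change was 0.79 (SE 0.296, edgeR adjusted p = 0.127), and 0.31 without Tumor+NS replicate 5 (adjusted p = 0.42). In doxorubicin-treated mice it was 0.33 (adjusted p = 0.483), and 0.50 without DOX replicate 4 and Tumor+NS replicate 5 (adjusted p = 0.0347). *Ripk1* overlaps *Serpinb6a* on the other strand, and 7.87% of its 50-base runs occur in other genes. *Casp8*, with 0.33 (edgeR adjusted p = 0.373) and 0.46 (0.154), was not called in that fit. Its second value was called with library totals (edgeR adjusted p = 0.027) and with limma (0.0319 and 0.0409 with pseudocounts of 0.1 and 1).

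Neutrophil transcripts rose with the tumor as well. All 10 neutrophil markers were called in both comparisons, but 6 of them reached the expression minimum only through these libraries, so the count is fixed in part by the minimum. Their summed FPKM was 1.65 to 4.93 in NS, 8.75 to 87.6 in DOX (5 of 10 rose), 837 to 7792 with the tumor and saline, and 1251 to 6120 with both tumor and drug. The marker *Ly6g* was listed at 0 in all NS libraries. Macrophage markers summed to 181 to 260 FPKM in Tumor+NS, against 132 to 160 in NS, and 2 of 10 rose. With doxorubicin they summed to 113 to 304 FPKM in Tumor+DOX, all above the 56.7 to 94.8 in DOX, and 4 of 10 rose. Bulk RNA does not show which cell types held the members' transcripts.

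Over the 11 tumor-bearing libraries the members were set against the summed neutrophil markers, a relation chosen after seeing the data and computed for 10 members and 2 marker lists (20 relations, 100000 permutations each). *Casp4* followed the neutrophil sum closely (Pearson's r = 0.94, permutation p = 5e-05, adjusted p = 0.001, and Spearman's rho = 0.93, p = 0.00017). Without the 2 libraries farthest from the median, Tumor+DOX replicate 5 and Tumor+NS replicate 1, r was 0.90. Tumor+NS replicate 5 was kept, and the share of all genes with such an r was not computed. *Nlrp3* had r = 0.90 (permutation p = 0.00013, adjusted p = 0.0013; rho = 0.94, p = 0.0001), and 0.95 without the 2 farthest libraries. For *Casp1* r was 0.87 (permutation p = 0.00074, adjusted p = 0.00493; rho = 0.69, p = 0.0222, adjusted p = 0.0555), for *Pycard* 0.84 (permutation p = 0.00181, adjusted p = 0.00905; rho = 0.80, p = 0.00497), and without the 2 farthest libraries these were 0.73 and 0.86. *Ripk3* and *Ripk1* had r of 0.74 and 0.72 (permutation p = 0.00947 and 0.0106, adjusted p = 0.0303 for each), with rho of 0.73 (p = 0.0141) and 0.92 (p = 0.00021). For *Gsdme*, *Casp8*, *Gsdmd* and *Mlkl* r was 0.42, 0.35, 0.32 and 0.15, with permutation p from 0.198 to 0.663. Within the 6 Tumor+NS libraries alone r was 0.95 for *Casp4*, 0.93 for *Pycard*, 0.92 for *Nlrp3* and *Casp1*, 0.86 for *Ripk3*, 0.72 for *Ripk1* and *Gsdme*, 0.27 for *Casp8*, 0.13 for *Mlkl* and −0.01 for *Gsdmd*. Of the macrophage relations, 2 had an adjusted p under 0.05 for Pearson's r, *Casp1* (r = 0.76, permutation p = 0.00514) and *Gsdme* (r = 0.69, permutation p = 0.0186). By Spearman's rho *Casp1* (0.74, adjusted permutation p = 0.0409) and *Ripk1* (0.73, 0.0409) passed, and *Gsdme* did not (0.64, 0.0903). Pearson's r for *Ripk1* was 0.42 (permutation p = 0.189). Without the libraries farthest from the macrophage median, Tumor+DOX replicates 4 and 5, r was 0.57 for *Casp1*, 0.69 for *Gsdme* and 0.29 for *Ripk1*. Within Tumor+NS these were 0.63, 0.57 and 0.08. The part of either cell type in the tumor differences was not tested.

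**Figure D3:**
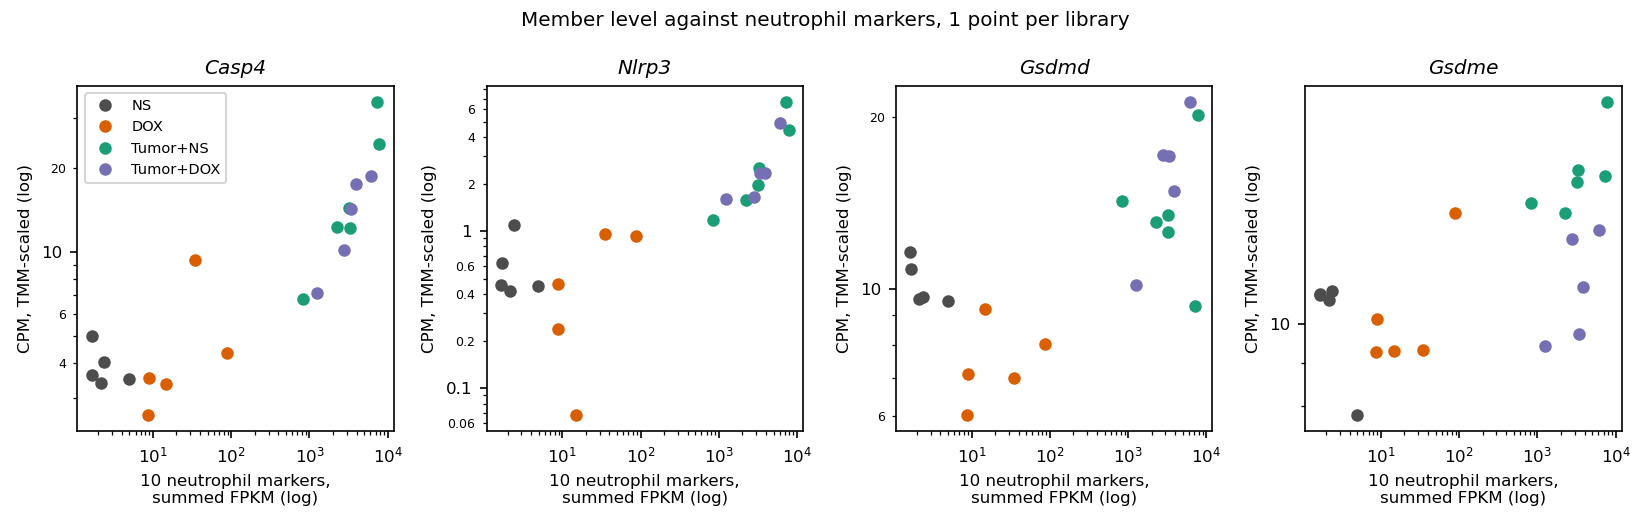
TMM-scaled CPM of *Casp4*, *Nlrp3*, *Gsdmd* and *Gsdme* (vertical log axes) against the summed FPKM of 10 neutrophil markers (horizontal log axes), with 1 point per library. In the 11 tumor-bearing libraries *Casp4* and *Nlrp3* climb with the marker sum (r = 0.94 and 0.90), while r is 0.32 for *Gsdmd* and 0.42 for *Gsdme* (−0.01 and 0.72 within Tumor+NS).

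Across all 21 libraries the 28 pairs of the 8 members correlated at 0.27 to 0.90 (Pearson, log2 CPM, median 0.59), which holds differences between groups as well as spread within them. After subtracting group means the range was −0.15 to 0.82, with a median of 0.30. These are descriptions over libraries that share groups and cell content. By the same measure over 21 libraries the genes most like *Casp4* were *Slfn2* (r = 0.98) and *Sp140* (0.97), those most like *Casp1* were *Fermt3* and *Hcls1* (both 0.92), and those most like *Gsdmd* were *Pbx2* (0.91) and *Mapk11* (0.90). *Ripk1* was nearest to *Il1r1* and *Rap1b* (both 0.95) by Pearson's r, which Tumor+NS replicate 5 weighs on, and to *Ddi2* (0.90) by Spearman's rho. *Ripk3* was nearest to *Map3k8* (0.87) and *Mcam* (0.86), *Mlkl* to *Podxl* (0.82) and *Jak3* (0.81), and *Gsdme* to *Stk4* (0.81) and *Ifnar2* (0.78).

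The wider pathways were read from 8 gene lists with 101 further genes, of which 76 were tested. With doxorubicin and no tumor 19 rose and 9 fell, 36.8% against 36.2% of all genes tested, so the share was near the background. In tumor-bearing mice doxorubicin moved 0 of 76 past the threshold in edgeR. With the tumor 11 rose and 0 fell in saline-treated mice (14.5% against 6.28%), and 15 rose and 13 fell in doxorubicin-treated mice (36.8% against 17.5%). Of the 76 genes, 7 reached the expression minimum only through tumor-bearing libraries, and 6 of the 11 and 5 of the 15 were among them, so these tumor shares are partly set by the minimum. Without DOX replicate 4 and Tumor+NS replicate 5 these counts were 21 and 12, then 3 and 4, then 10 and 0, and then 17 and 6. As shares these are 43.4%, 9.21%, 13.2% and 30.3%, where 38.4%, 7.18%, 5.25% and 21% of all genes tested were called in that fit.

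The inflammasome matures the products of *Il1b* and *Il18*. *Il1b* stood at 0.07 to 0.34 FPKM in NS and 0.03 to 1.54 in DOX, where DOX replicate 3 held 1.54 and the other DOX libraries 0.03 to 0.19. With the tumor it reached 2.44 to 16.3 FPKM after saline and 6.71 to 12.2 after doxorubicin. It rose with the tumor by 5.86 on the log2 scale in saline-treated mice (SE 0.663, edgeR adjusted p = 3.03e-06) and by 4.36 in doxorubicin-treated mice (SE 0.589, adjusted p = 2.78e-05). With a mean of 0.284 FPKM in tumor-free libraries, it reached the expression minimum only through the tumor-bearing libraries. That it was tested at all rests on the libraries where it is high. Between Tumor+DOX and Tumor+NS it gave −0.01 (SE 0.44). *Il18* remained below the expression minimum, at means of 0.254, 0.250, 0.492 and 0.428 FPKM in NS, DOX, Tumor+NS and Tumor+DOX, and was not tested.

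In the list of inflammasome sensors and adaptors, which includes *Casp1* and *Casp4*, 2 further genes rose with the tumor in saline-treated mice. These were *Mefv*, encoding the sensor pyrin, listed at 0 to 0.06 FPKM in NS and at 0.32 to 2.86 in Tumor+NS (edgeR adjusted p = 4.75e-06), and *Naip2*, a receptor of the NLRC4 inflammasome (1.12, SE 0.334, adjusted p = 0.0473, and 0.0906 without DOX replicate 4 and Tumor+NS replicate 5). In the interleukin-1 family these were *Il1b*, the decoy receptor gene *Il1r2* (0 to 0.14 FPKM in NS and 0.89 to 61.9 in Tumor+NS), *Il18rap* (5.37, SE 0.699), *Il1r1* (1.46, SE 0.408, and 0.63 without DOX replicate 4 and Tumor+NS replicate 5) and *Il1rap* (1.07, SE 0.261). *Mefv*, *Naip2*, *Il1b*, *Il1r2* and *Il18rap* passed the minimum only through the tumor-bearing libraries, where they are high, so their number is no result about these lists. In the TNF receptor and apoptotic lists *Tnfrsf1a* (1.07, SE 0.231) and *Tnfrsf1b* (1.21, SE 0.257), the receptors of TNF, *Birc3* (1.58, SE 0.432, and 0.76 with an adjusted p of 0.0656 without DOX replicate 4 and Tumor+NS replicate 5) and *Pmaip1* (2.03, SE 0.489) rose. *Pmaip1* also passed the minimum only through tumor-bearing libraries. *Mefv*, *Naip2*, *Il1r2*, *Il1r1*, *Il1rap*, *Tnfrsf1b*, *Birc3* and *Pmaip1* were named after their values were seen.

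Several partners of the members were called for doxorubicin without a tumor. *Ninj1*, whose product ruptures the membrane after gasdermin pores have formed, rose by 0.65 on the log2 scale (SE 0.203, edgeR adjusted p = 0.0161), from 13.4 ± 4.17 to 18.9 ± 4.15 FPKM (n = 5 each). *Aim2*, a sensor of cytosolic DNA, rose by 1.14 (SE 0.247, adjusted p = 0.00128), and its interaction was −1.39 (SE 0.341, adjusted p = 0.0205). In the interaction 2 of the 76 list genes were called higher and 5 lower, 9.2% against 8.94% of all genes tested. Among them were *Nek7* (−0.60, edgeR adjusted p = 0.037), *Mapkapk2* (−0.62, 0.0227), *Tlr3* (0.70, 0.0274) and *Rbck1* (0.44, 0.0489, and 0.0938 without DOX replicate 4 and Tumor+NS replicate 5). *Nek7*, a partner of NLRP3, rose by 0.45 (SE 0.126), and *Casp12* fell by 0.67 (SE 0.227). *Il18rap* rose by 2.22 (SE 0.754) and *Il18bp*, encoding the inhibitor of interleukin-18, by 0.48 (SE 0.189). *Il33*, an alarmin, fell by 1.48 (SE 0.249, edgeR adjusted p = 0.000149), from 5.58 ± 1.32 to 1.81 ± 0.764 FPKM.

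Around the death receptors, *Tlr4* (0.89, SE 0.175), *Fas* (0.76, SE 0.287), *Tnfrsf1a* (0.65, SE 0.239) and the RIPK1-inhibiting kinase gene *Mapkapk2* (0.61, SE 0.113) rose with doxorubicin. *Fadd*, the adaptor that brings caspase-8 to its receptors, fell by 0.74 (SE 0.150, edgeR adjusted p = 0.000732), as did *Cflar*, which encodes its inhibitor (by 0.39, SE 0.0935), *Tlr3* (by 0.62, SE 0.135) and the ubiquitin ligase subunit gene *Rbck1* (by 0.36, SE 0.0998). In the apoptotic list *Bcl2l11* (0.98, SE 0.235), which promotes death, and *Bcl2l1* (0.98, SE 0.336), which opposes it, both rose, and *Casp6* (by 0.66, SE 0.187) and *Bak1* (by 0.57, SE 0.153) fell. The interferon-induced GTPase genes *Igtp* (2.92, SE 0.781) and *Irgm2* (2.61, SE 0.661) were called higher with DOX replicate 4 in the fit, which held 104 FPKM of *Igtp* and 61.6 of *Irgm2*. Without it and Tumor+NS replicate 5 they gave 0.06 (edgeR adjusted p = 0.824) and 0.40 (0.0351). In that fit *Tnfrsf1a* (0.0659) and *Il18bp* (0.0593) did not pass the threshold.

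**Figure D4:**
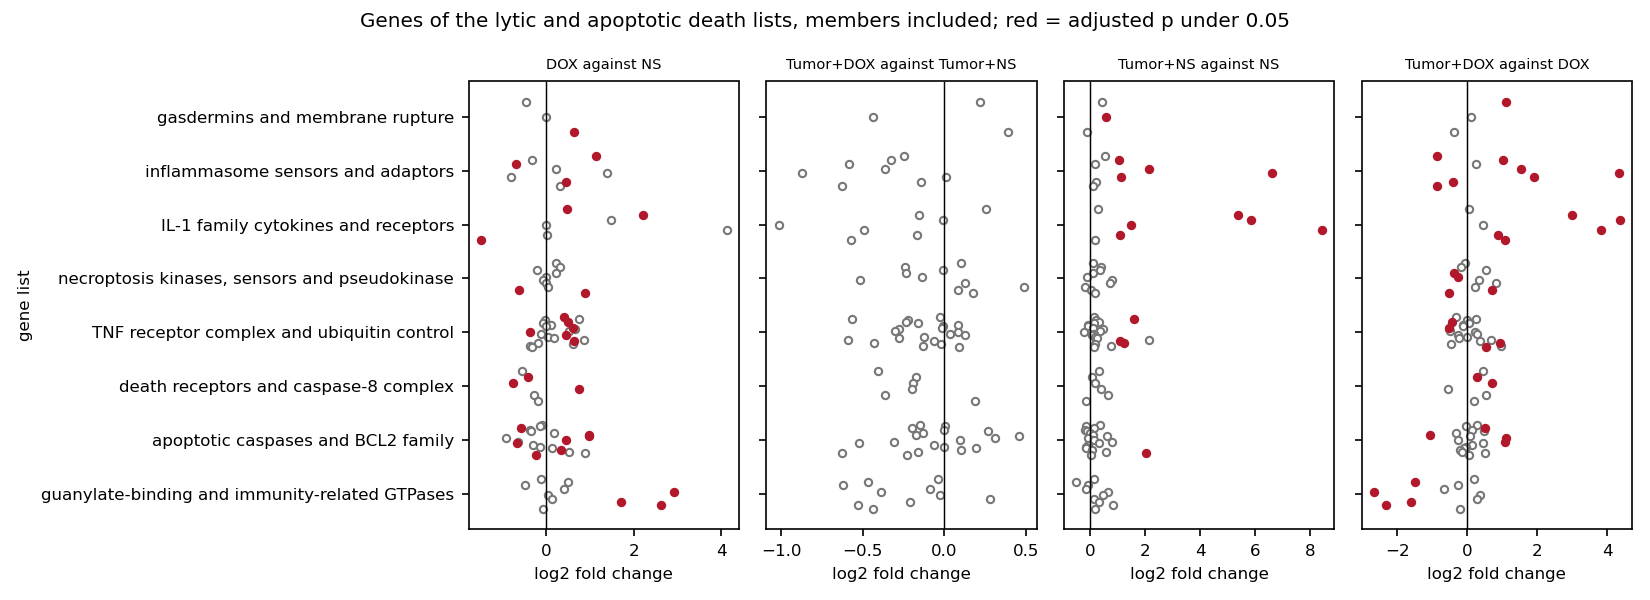
Log2 fold changes (horizontal axes, each with its own range) of the 84 genes tested in 8 lists of lytic and apoptotic death, members included, with 1 point per gene and red where the edgeR adjusted p was under 0.05. Red points lie on both sides of 0 for DOX against NS, none is red for Tumor+DOX against Tumor+NS, and for Tumor+NS against NS all 14 red points lie above 0.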

How the data were processed

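The authors trimmed reads with Cutadapt, and the submitters' processing notes name HISAT2, HTSeq 0.6.1, FastQC, DESeq2 1.34.0 and GRCm39 without their roles. The authors deposited 1 table that holds, for every gene and library, the raw read count and FPKM, beside GO and pathway annotation that was not used. FPKM equals the deposited count per length and library total within 0.005.

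Members and gene lists were chosen with earlier results of these data known. Counts of 13990 genes, those averaging 0.5 FPKM or more, were fitted in edgeR 4.0.16 (R 4.3.3) with TMM scaling and 1 coefficient per group over all 21 libraries. Two-sided quasi-likelihood F tests were adjusted by Benjamini-Hochberg, and a call was an adjusted p under 0.05. Members below the minimum were tested with exact permutation tests. Every member was named, and of each list up to 2 genes called higher and 2 lower in a doxorubicin comparison, *Il1b*, *Il18* and the 2 genes most correlated with each member. Some of these correlated genes are not reported here. The scripts were tested on simulated data. Alternatives were other scaling, minimum, thresholds, groups fitted, a replicate block, limma 3.58.1 on log2 FPKM, DESeq2 1.42.0 and leaving out each library. Replicates of a group differed by more than counting error (chi-square per degree of freedom at least 5.33), and correlated at 0.924 to 0.992.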

Additional observations from a re-analysis of the deposited data

Results flagged for a closer look

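In 4 of 40 groups of libraries, 1 library stood apart from the others of its group, by the gap to its nearest neighbor divided by the range of the group on the log2 CPM scale (limit 0.71 for 5 and 0.625 for 6 libraries). Chance flags about 1 in 20 groups. *Gsdme* was low in NS replicate 4 (7.81 CPM against 10.7 to 10.9, gap 0.927) and high in DOX replicate 3 (13.5 CPM against 9.26 to 10.1, gap 0.765). *Casp1* was high in DOX replicate 4 (gap 0.715), the library with thymocyte transcripts. *Casp8* was low in NS replicate 3 (8.21 CPM in a group of up to 14.4, gap 0.781), and without that library the edgeR adjusted p of its difference between DOX and NS passed 0.05.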

How the results depend on the processing

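No called fold change of a member changed sign under any alternative run. Members called for DOX against NS (0 of 8) became 2 with library totals, with only the groups compared and with limma on log2(FPKM + 0.1). In these fits 4949, 5153 and 4962 of 13990 genes were called. The members called became 1 with limma on log2(FPKM + 1), where 4830 genes were called. They became 1 with a mean FPKM of at least 5, which leaves only *Gsdmd* among the members tested, where 2496 of 5668 genes were called. They also became 1 without DOX replicate 4 and Tumor+NS replicate 5 (chosen after seeing the data), where 5371 genes were called. Members called for Tumor+DOX against Tumor+NS (0) became 1 with DESeq2 and without those 2 libraries, where 1074 and 1005 genes were called. Members called for Tumor+NS against NS (3) became 1 with either limma fit, where 614 and 659 of 13990 genes were called, and 0 at the higher minimum. Those for Tumor+DOX against DOX (3) became 5 with library totals or either limma fit, with *Mlkl* and *Casp8* added. In these fits the share of all genes tested that were called higher went from 9.52% to 18%, 17.8% and 16.8%. At the higher minimum 1 member was called. Of the genes called for the interaction 44.1% were higher, and 76.1% with library totals. Otherwise the cause was not tested.

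All genes called, for DOX in tumor-free mice, DOX in tumor-bearing mice, the interaction, the tumor under saline and the tumor under DOX, in this order, numbered 5071, 660, 1251, 879 and 2442. With a log2 change of 1 or more in size they were 1392, 155, 544, 504 and 786, and with an adjusted p under 0.01 they were 3101, 135, 61, 437 and 1079. At the higher minimum they were 2496 for the first and 551, 334 and 948 for the last 3, the second staying within 1.5 times. Tumor+DOX against Tumor+NS gave 351 with only these groups, 420 with limma on log2(FPKM + 0.1), 1074 with DESeq2 and 1005 without both libraries, and the interaction gave 2005 with DESeq2.

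Replicate numbers do not pair the libraries: residuals of same-numbered libraries correlated at −0.23 to 0.21. With the replicate number as a block, 2 members were called in edgeR for DOX against NS (*Gsdmd*, adjusted p = 0.0262, and *Casp8*, 0.0472). For the interaction 1 was called (*Gsdmd*, 0.83, adjusted p = 0.0475), and *Casp1* in Tumor+NS against NS had an adjusted p of 0.0852. The genes called were 4882 of 13990 for DOX against NS, 506 for the interaction and 469 for Tumor+NS against NS.

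Leaving out each library gave 0 to 2, 0 to 1, 0 to 1, 2 to 3 and 2 to 4 members and 4320 to 5943, 260 to 938, 657 to 1721, 595 to 1204 and 1755 to 3478 genes in the order above. The *Gsdme* call in Tumor+NS held in all 21 of these fits and was lost with limma (adjusted p = 0.0663 and 0.0558). With 1 to 17 *Nlrp3* counts in tumor-free libraries, depth limits its values.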
